A study of Mus musculus with 6 samples.

Results

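The proteasome genes of mouse RPE/choroid were taken from one processed table of total RNA as the 48 genes, of 33924 in all, whose symbols belong to the Psma, Psmb, Psmc, Psmd, Psme, Psmf and Psmg families and end in a number. RPE/choroid is the retinal pigment epithelium together with the vascular layer beneath it, and it was scraped from the eyecups of untreated wild-type C57BL/6J mice, with 2 eyes in each sample. There were 3 samples from young mice, labelled 1 to 2 months, and 3 from aged mice, labelled 22 to 24 months in one field and from 20 months in the titles. The labels call every mouse male, but males and females both appear in the methods, which also put the young group at a somewhat higher age. The table gives for each gene the mean normalized count over the 6 libraries, a log2 fold change between the age groups, its standard error (SE) and an adjusted p. No value per mouse was analysed, so the spread between mice is seen only through the SE, and depth per library is unknown here.

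The proteasome is the protease that degrades proteins tagged with ubiquitin. Its 20S core is a barrel of alpha and beta rings, and the cutting sites lie on the beta subunits encoded by Psmb5, Psmb6 and Psmb7. The 19S regulatory particle caps the core, and its base binds ubiquitin and unfolds substrates with ATPases while its lid removes the ubiquitin; core and cap together form the 26S particle. In leukocytes, and in other cells exposed to interferon, Psmb8, Psmb9 and Psmb10 take the places of Psmb5, Psmb6 and Psmb7 and form the immunoproteasome, which favours peptides that MHC class I molecules present. The retina and RPE are known to rely on the proteasome for turnover of damaged proteins.

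All 48 genes were detected, and 47 were tested. Psmb11, the core subunit of the thymus, stood at a mean of 1.92 normalized counts, too low for an adjusted p. Means of the tested genes ran from 46.4 normalized counts for Psma8 to 3996 for Psmd2, and the 48 genes held 0.356% of the summed signal of the table. Retinoid genes that define the RPE were abundant, with means of 43745 for Rpe65, 92190 for Rgr and 30062 for Rlbp1.

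Proteasome genes were on balance higher in aged than in young RPE/choroid, and the immunosubunits Psmb8 and Psmb9 had the largest fold changes. Of the 47 genes tested, 14 rose with age at an adjusted p under 0.05 and 0 fell, which is 29.8% against 11.3% of all 18636 genes tested for rises, and 0 against 9.92% for falls. Among genes with a mean of at least 100, which 46 of the 47 reach, the shares over all genes were 13.9% for rises and 8.65% for falls. The genes that rose were Psmb8, Psmb9, Psmb10, Psma8, Psmc1, Psmc2, Psmc5, Psmd1, Psmd2, Psmd7, Psmd8, Psmd10, Psme1 and Psme2. At an unadjusted p under 0.05, 20 genes were higher and 1 was lower, beside 3082 higher and 2993 lower of all 18636 genes tested. The fold change was above 0 for 43 genes and below 0 for 4, with a median of 0.26 on the log2 scale, whereas the median over all genes tested was -0.01 and that over the 12716 tested genes with a mean of at least 100 was 0.06. In a bulk sample, more cells of a type and more RNA per cell cannot be told apart. When fold changes were centred on that median of abundant genes, 6 proteasome genes rose (Psmb8, Psmb9, Psmb10, Psmc5, Psmd1 and Psme2) and 1 fell (Psme4), while over all genes the share that rose was 8.85% and the share that fell 12.3%. Of the 14 calls, 8 were thus lost by a shift of 0.06 in every fold change, among them those of Psma8 and Psmd10.

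**Figure D1:**
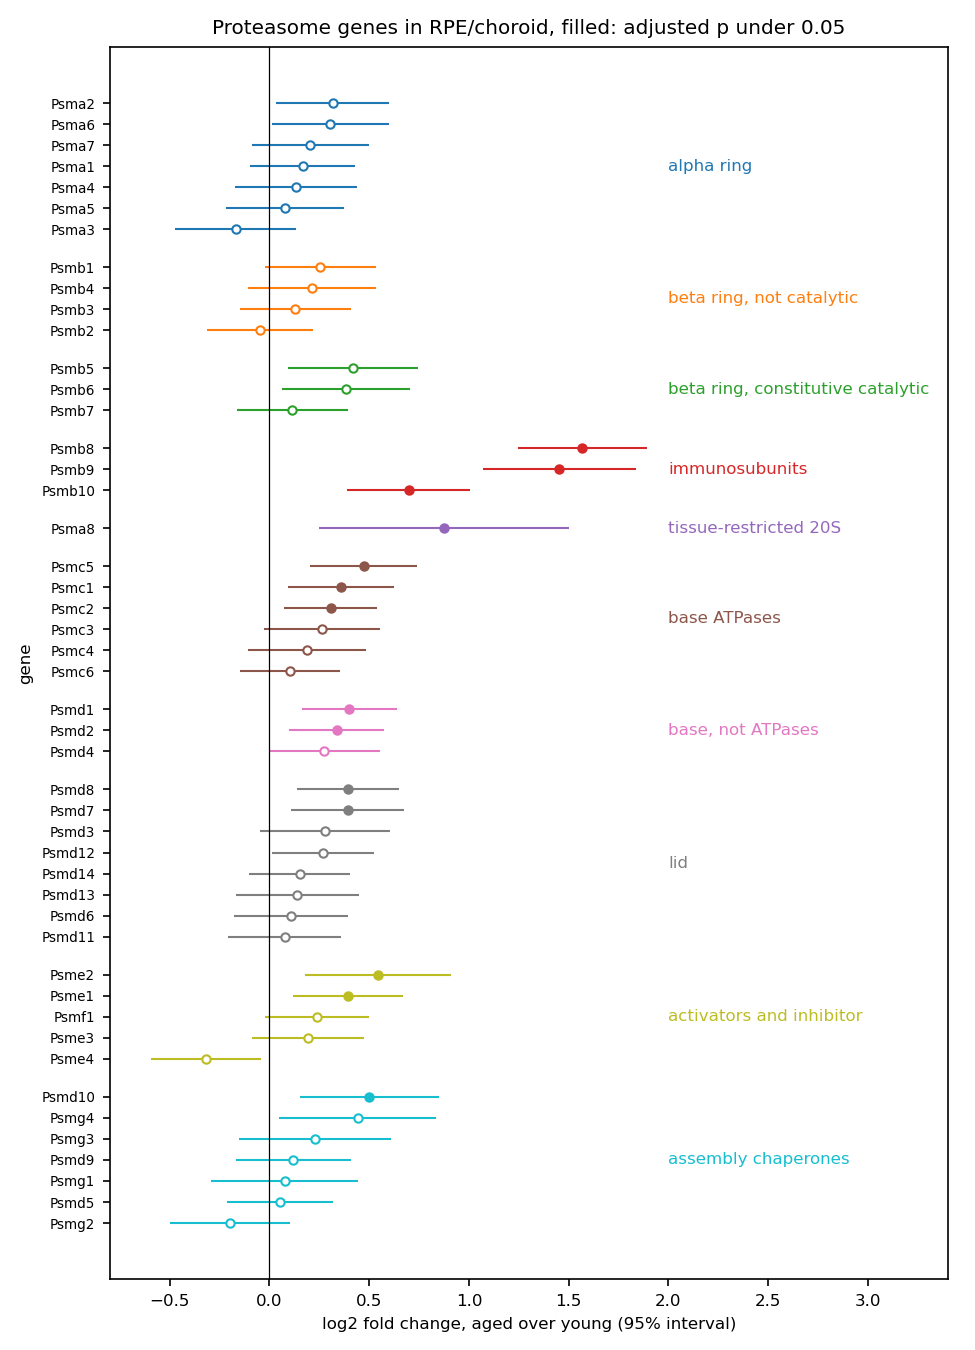
Log2 fold change of aged over young mice for the 47 tested proteasome genes, grouped by role, with 95% intervals from the SE. Filled points have an adjusted p under 0.05, all 14 of them lie right of 0, and Psmb8 and Psmb9 lie farthest from it.

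The 3 immunosubunits had the smallest adjusted p of the proteasome genes. Psmb8 encodes the immunoproteasome counterpart of Psmb5. From the table's mean of 709 and its fold change, group means of 358 normalized counts in young and 1061 in aged mice were worked out, a log2 fold change of 1.57 (adjusted p 1.58e-19, SE 0.16). Psmb9, the counterpart of Psmb6, stood at 162 in young and 444 in aged mice, with a log2 fold change of 1.45 (adjusted p 6.2e-12, SE 0.20). Psmb8 was thus 2.96-fold and Psmb9 2.74-fold as high in aged mice. Psmb10, the counterpart of Psmb7, stood at 488 and 792, a smaller log2 fold change of 0.70 (adjusted p 0.000139, SE 0.16), or 1.62-fold.

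The rise of Psmb10 was smaller than those of the other immunosubunits. Because the genes were measured in the same libraries, their errors may be correlated, so the SE of a difference was taken as the sum of both SEs, the largest that any correlation allows. The log2 fold change of Psmb8 exceeded that of Psmb10 by 0.87 (largest SE 0.32, lower bound of the 95% interval 0.24), and that of Psmb9 exceeded it by 0.76 (largest SE 0.35, lower bound 0.06). Between Psmb8 and Psmb9 the difference was 0.11, with an interval from -0.59 to 0.82. Psmb8 and Psmb9 therefore could not be ordered at this precision.

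Set against its own constitutive counterpart, each immunosubunit had the larger log2 fold change. Psmb5, with the chymotrypsin-like site, had a log2 fold change of 0.42 (adjusted p 0.0546, SE 0.17), and that of Psmb8 was larger by 1.15 (95% interval 0.50 to 1.80). Both values are uncertain beyond the interval, since only 28.3% of the 31-base words of Psmb5 transcripts occur in no other gene. For Psmb6, with the caspase-like site, the log2 fold change was 0.38 (SE 0.16, adjusted p 0.0772), and that of Psmb9 was larger by 1.07 (0.37 to 1.78). For Psmb7, with the trypsin-like site, it was 0.12 (SE 0.14, adjusted p 0.618), and that of Psmb10 was larger by 0.58, with an interval from -0.0030 to 1.17 that just reached 0. With the SE of independent genes that last interval would be 0.17 to 1.00, so whether it holds depends on a correlation that was not measured. Rescaling the libraries leaves these differences as they are, since both genes of a pair shift alike. Against the median of the 31 constitutive 26S subunits in the symbol families, the fold changes of Psmb8, Psmb9 and Psmb10 were larger by 1.31, 1.20 and 0.44.

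Constitutive subunits were nevertheless the more abundant partner at both ages. Levels between genes were compared as normalized counts per kilobase (kb) of coding-transcript exon. Psmb6 stood at 2695 per kb in young and 3516 in aged mice, and Psmb9 at 120 and 329, so Psmb6 was 22.5-fold as high as Psmb9 in young and 10.7-fold in aged mice. Psmb7 stood at 1867 and 2022 per kb and Psmb10 at 372 and 604, a ratio of 5.01 in young and 3.35 in aged mice. The pair Psmb5 and Psmb8 came closest to equal levels, with Psmb5 at 598 and 800 per kb and Psmb8 at 220 and 652. As a share of the summed level of its pair, Psmb8 went from 26.9% to 44.9%, Psmb9 from 4.26% to 8.55% and Psmb10 from 16.6% to 23.0%. The first of these shares is the least certain, because only 28.3% of the 31-base words of Psmb5 transcripts occur in no other gene. A processed copy, Gm3375, holds 59.8% of them, and its reads were not analysed here. The level and the fold change of Psmb5 are therefore uncertain.

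**Figure D2:**
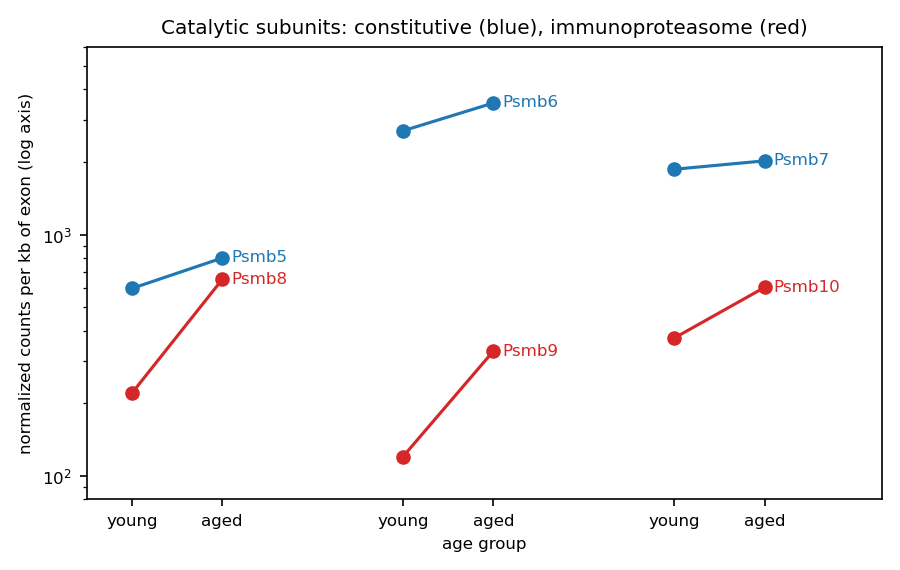
Levels of the catalytic subunits in young and aged mice, in normalized counts per kb of exon on a log axis, worked out from the mean over 6 libraries and the fold change, with no error shown. Constitutive subunits are blue and immunosubunits red, each red line rises more steeply than the blue line of its pair, and Psmb8 comes near Psmb5 in aged mice.

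Markers of macrophages and of T and NK cells, leukocytes that carry the immunoproteasome without stimulation, moved in the same direction. Of 8 macrophage markers, all tested, 6 rose and 0 fell, which is 75.0% that rose against 11.3% of all genes, with a median log2 fold change of 1.31, and their summed level went from 9595 normalized counts in young to 20163 in aged mice. Of 7 T and NK cell markers 6 rose, or 85.7%, with a median of 2.10 and a summed level of 148 in young and 662 in aged mice. Of that sum, Cd4 alone held 76.4 in young and 407 in aged mice. The other markers of this list were scarce, with means from 11.6 to 43.0 normalized counts. Of 4 B cell markers 0 rose at an adjusted p under 0.05, as also at an unadjusted p, and their summed level was 162 and 197. None of these 19 markers stood at 0. Ptprc, the pan-leukocyte antigen CD45, had a log2 fold change of 1.94 (adjusted p 4.55e-52, SE 0.12), which is larger than that of Psmb8, and the macrophage marker Cd68 had 3.37 (SE 0.14). Other macrophage markers had smaller values than Psmb8, among them Csf1r with 0.37 (SE 0.13, adjusted p 0.0276), Cx3cr1 with 0.44 (SE 0.19, adjusted p 0.0816) and Mrc1 with 0.15 (SE 0.14, adjusted p 0.512), and after centring 5 of the 8 rose, beside 8.85% of all genes. The part of such cells in the rise of the immunosubunits was not tested.

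Psmb8 and Psmb9 lie on chromosome 17 within the MHC, beside the genes of the peptide transporter. Psmb9 is at chr17:34181987-34187764 (GRCm38, minus strand) and Psmb8 at chr17:34197721-34201454 (plus strand), with Tap1 between them and Tap2 after Psmb8. These and the following gene positions are from GENCODE, in which the ends of Psmb9 and Tap1 overlap. RefSeq has a shorter Psmb9 and leaves 225 bases between its start site and that of Tap1. Psmb10 is elsewhere, at chr8:105935735-105938444 on the minus strand. Psme1 and Psme2, which encode the interferon-responsive activator PA28, lie together on chromosome 14, at 55578123 to 55581529 and 55587441 to 55591113. Psmb5 is also on that chromosome, at 54614119 to 54618022, next to Psmb11.

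The 250 bases before each RefSeq start site were searched on both strands for 3 motifs, in 40 of the 48 genes for which a promoter entry was found and in 27025 genes in all. The motifs were GAAANNGAAA, the interferon-stimulated response element; TTCNNNGAA, the gamma-activated site of interferon-induced genes; and TGACNNNGC, the core of the antioxidant response element bound by Nfe2l1 and Nfe2l2. Among the 5 catalytic subunit genes with an entry, the constitutive Psmb5 and Psmb6 held the antioxidant motif and Psmb8 the gamma-activated one, as the following stretches of 30 bases show, from RefSeq (GRCm38.p6), 5′ to 3′ on the strand of the gene and with the motif in capitals.
Psmb5, chr14:54618023-54618052, minus strand: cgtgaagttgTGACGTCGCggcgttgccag
Psmb6, chr11:70525327-70525356, plus strand: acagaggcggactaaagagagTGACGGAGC
Psmb8, chr17:34198088-34198117, plus strand: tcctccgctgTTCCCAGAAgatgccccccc

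The motif of Psmb5 ends 39 bases before the start site, that of Psmb6 directly before it and that of Psmb8 89 bases before it. No match to the 3 motifs was found in the windows of Psmb9 and Psmb10, which says only that these letters are not there. Over the 40 genes, the gamma-activated motif was in 2 (Psmb8 and Psmg1), or 5%, against 7.18% of all promoters. The antioxidant motif was in 5 (Psmb5, Psmb6, Psmc6, Psmd9 and Psmd12), or 12.5% against 10.1%, and the interferon element in 3 (Psmb3, Psmd4 and Psmd9), or 7.5% against 3.04%. For Psmb8 and Psmb9, the gene as placed by GENCODE begins farther upstream, so their windows fall inside that gene. Psmb5 and Psmb10 begin inside their windows in GENCODE.

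The symbol families hold 31 constitutive subunits of the 26S particle, and the counts here cover only these. Of the 31, 7 rose with age, 0 fell and 24 did not pass the test, which is 22.6% that rose against 11.3% of all genes. After centring 2 of the 31 rose, Psmc5 and Psmd1, beside 8.85% of all genes. Their fold change was above 0 in 29 and below 0 in 2, with a median of 0.26 on the log2 scale before and 0.19 after centring. All 7 rises before centring were in the 19S regulatory particle, where 7 of 17 subunits rose. In the constitutive 20S core 0 of 14 rose at an adjusted p under 0.05 and 4 were higher at an unadjusted p. Over all 18636 genes tested, 3082 were higher at an unadjusted p under 0.05. The medians were 0.28 for the 19S particle and 0.19 for the 20S core, and the difference between both parts was not tested. Of the 24 subunits that did not pass, 10 had a 95% interval that includes a log2 rise of 0.5 and 14 had one that ends below it.

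In the alpha ring, which gates the entry to the core, the log2 fold change ran from 0.32 for Psma2 (SE 0.14, adjusted p 0.102) to -0.17 for Psma3 (SE 0.16, adjusted p 0.482). Of its 7 genes 6 were above 0. The value of Psma5, 0.08 (SE 0.15), is uncertain, since only 41.3% of its words are its own and processed copies share the rest. The beta subunits without a cutting site had log2 fold changes from 0.26 for Psmb1 (SE 0.14, adjusted p 0.196) to -0.05 for Psmb2 (SE 0.14, adjusted p 0.854).

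The base of the 19S particle held 5 of the 7 rises, of which Psmc5 and Psmd1 passed the test after centring and Psmc1, Psmc2 and Psmd2 did not (adjusted p 0.106, 0.136 and 0.0975). Psmc5, an ATPase, had the largest of them, from 1238 normalized counts in young to 1717 in aged mice, a log2 fold change of 0.47 (adjusted p 0.00482, SE 0.14). Psmc1 and Psmc2, also ATPases, had 0.36 (SE 0.14, adjusted p 0.0402) and 0.31 (SE 0.12, adjusted p 0.0475), and the lowest of the 6 ATPases was Psmc6 with 0.10 (SE 0.13, adjusted p 0.620). Psmd1 and Psmd2, the large scaffolds of the base, rose by 0.40 (SE 0.12, adjusted p 0.00743) and 0.34 (SE 0.12, adjusted p 0.0325). Psmd2 was the most abundant proteasome gene by mean count. Psmd4, a ubiquitin receptor, had 0.28 (SE 0.14, adjusted p 0.158). Psmc1 and Psmd2 have 67.8% and 68.4% of their words to themselves, and their processed copies Gm9575 and Gm5422 stood at means of 64.5 and 403 normalized counts.

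In the lid, all 8 genes of the symbol families had a fold change above 0, as 49.5% of all genes did. Of the 8, 2 rose, or 25.0% against 11.3% of all genes. After centring all 8 stayed above 0 but 0 passed the test. Psmd8 had 0.39 (SE 0.13, adjusted p 0.0164) on the log2 scale, and Psmd7, the partner of the deubiquitinase Psmd14, also had 0.39 (SE 0.15, adjusted p 0.0362). After centring their adjusted p was 0.0532 and 0.0918. Psmd14 itself had 0.15 (SE 0.13, adjusted p 0.438). Psmd11 was lowest with 0.08 (SE 0.14, adjusted p 0.763).

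**Figure D3:**
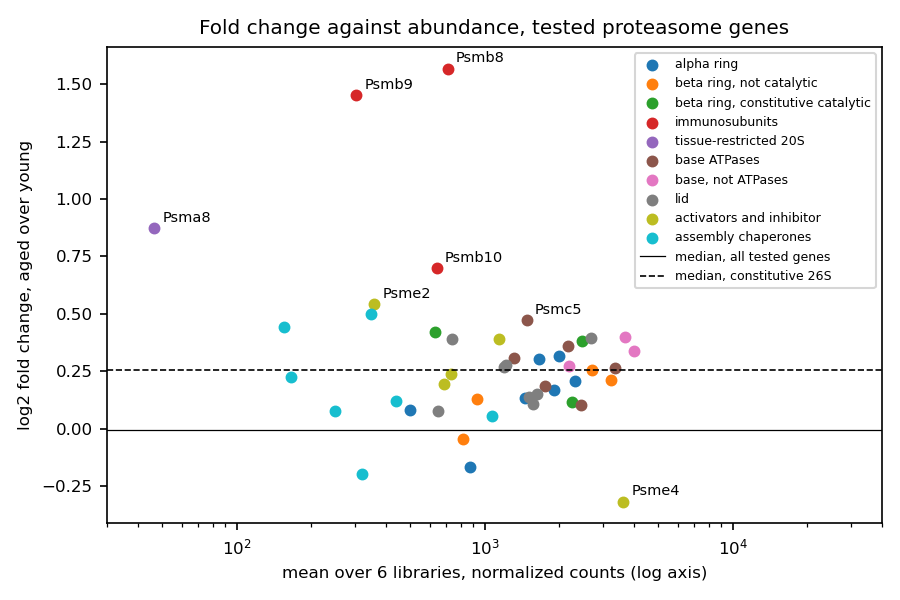
Log2 fold change of aged over young mice against the mean over 6 libraries in normalized counts (log axis) for the 47 tested proteasome genes, coloured by role. Most points lie between the median of all genes tested (-0.01, solid line) and 0.47 (Psmc5), the dashed line is the median of the constitutive 26S subunits (0.26), the immunosubunits stand above genes of similar abundance, and Psme4 is lowest.

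Of 5 genes for activators that cap the core in place of the 19S particle, and for an inhibitor, 2 rose, or 40.0% against 11.3% of all genes, and 3 did not pass the test. After centring Psme2 (adjusted p 0.0499) passed and Psme1 (0.0797) did not. Psme1 and Psme2 encode the alpha and beta subunits of PA28, which is induced together with the immunoproteasome. Psme1 went from 991 normalized counts in young to 1300.2 in aged mice, a log2 fold change of 0.39 (adjusted p 0.0295, SE 0.14). Psme2 went from 292 to 425, with 0.54 (SE 0.19, adjusted p 0.0223). Psme2b-ps, a copy annotated as Psme2b in GENCODE that shares 33.5% of the words of Psme2, was listed at a higher mean than Psme2 itself, 825 against 358, and had a log2 fold change of 0.69 (adjusted p 1.04e-05, SE 0.14). How reads were divided between them is uncertain, and both rose. Psme3, the nuclear activator PA28 gamma, had 0.19 (SE 0.14, adjusted p 0.359), and Psmf1, the regulator PI31, had 0.24 (SE 0.13, adjusted p 0.198).

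Psme4 had the lowest fold change of the tested genes. It encodes PA200, the nuclear activator that promotes degradation of acetylated histones. Its mean was 4016 normalized counts in young and 3222 in aged mice, a log2 fold change of -0.32 (adjusted p 0.0903, SE 0.14), which is past an unadjusted threshold only. After centring it was -0.38 (adjusted p 0.0341). The difference between Psme4 and the other activators was not tested.

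Of 7 assembly chaperones 1 rose, a share of 14.3% that lies near the 11.3% of all genes, and after centring 0 passed the test. Psmd10, or gankyrin, which helps the base to form, had a log2 fold change of 0.50 (adjusted p 0.0270, SE 0.18) and an adjusted p of 0.0606 after centring. Psmg4, of the chaperones that build the alpha ring, had 0.44 (SE 0.20, adjusted p 0.0989), and Psmg2 of the same set had -0.20 (SE 0.15, adjusted p 0.394). The median over the 7 was 0.12.

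Tissue-restricted core subunits were scarce. Psma8, the alpha subunit of the testis, had a mean of 46.4 normalized counts and went from 32.7 in young to 60.0 in aged mice, a log2 fold change of 0.87 with the largest SE of the tested members, 0.32 (adjusted p 0.0333). After centring its adjusted p was 0.0521. Psmb11 had 0.18 (SE 0.39) at its mean of 1.92.

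Genes that control or serve the proteasome were then described from fixed lists. Nfe2l1 encodes the transcription factor that raises proteasome genes when degradation is impaired, and it rose by 0.46 on the log2 scale (SE 0.14, adjusted p 0.00960). Its relative Nfe2l2 had 0.28 (SE 0.14, adjusted p 0.153). The small Maf genes Mafk and Maff, whose products pair with both, rose by 0.94 (SE 0.13, adjusted p 1.47e-10) and 0.83 (SE 0.22, adjusted p 0.00130). In all, 3 of 10 genes of transcription control rose and 0 fell, with a median of 0.28, and the same count rose after centring. Over all genes 11.3% rose.

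Of 16 proteasome-associated genes outside the symbol families that were found in the table, 1 rose and 0 fell, with a median log2 fold change of 0.17. The gene that rose was Ubqln2, a shuttle that delivers ubiquitinated proteins, with 0.58 (SE 0.21, adjusted p 0.0284). The share that rose, 6.25%, lies below the 11.3% of all genes, and after centring Ubqln2 did not pass (adjusted p 0.0570). Pomp, the maturation factor of the core, had 0.29 (SE 0.14, adjusted p 0.135). Among 6 genes for ubiquitin and its activating enzymes, Ubb rose by 0.46 (SE 0.15, adjusted p 0.0162) and Rps27a, a fusion of ubiquitin with a ribosomal protein, had -0.60 (SE 0.22, adjusted p 0.0321). Rps27a belongs to the ribosomal protein genes, which have many near-identical copies, so its value is uncertain.

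Genes of MHC class I loading, which act after the immunoproteasome, rose as a group by count. Of 12 tested, 10 rose and 0 fell, which is 83.3% that rose against 11.3% of all genes, and their median log2 fold change was 0.96. Heavy chain genes H2-D1 and H2-K1 had 2.28 (SE 0.17, adjusted p 7.25e-37) and 1.86 (SE 0.16, adjusted p 5.21e-30), and the light chain gene B2m had 1.28 (SE 0.15). Nlrc5, the transactivator of these genes and of Psmb9, had 1.66 (SE 0.19, adjusted p 6.13e-17). The transporter genes Tap1 and Tap2, neighbours of Psmb8 and Psmb9, had 1.09 (SE 0.20, adjusted p 7.42e-07) and 1.24 (SE 0.17, adjusted p 1.59e-11). After centring, 8 of the 12 rose.

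Interferon signalling genes rose in 12 of 19 tested, or 63.2% against 11.3% of all genes, with 0 falls and a median log2 fold change of 0.43. After centring 10 of the 19 rose. Irf8, a factor of myeloid cells, had the largest value, 1.86 (SE 0.15, adjusted p 1.76e-34). Irf1, a factor that binds the Psmb9 promoter in other cells, had 0.32 (SE 0.14, adjusted p 0.0814). The interferon-induced GTPase genes Gbp2, Igtp, Iigp1 and Irgm1 had 1.27 (SE 0.17), 1.02 (SE 0.23), 1.00 (SE 0.26) and 0.86 (SE 0.16). Ifng itself stood at a mean of 2.12 normalized counts, too low for an adjusted p, with 0.85 (SE 0.40).

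**Figure D4:**
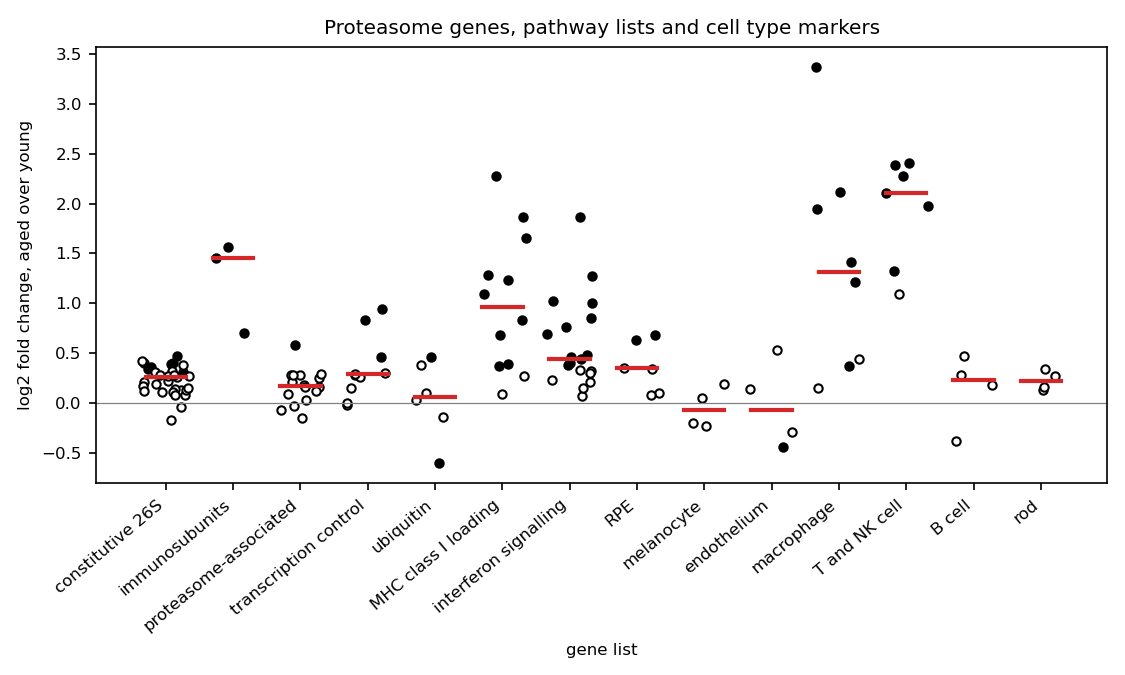
Log2 fold change of aged over young mice for each tested gene of the constitutive 26S subunits, the immunosubunits, the pathway lists and the cell type markers, with filled points at an adjusted p under 0.05 and the list median in red. The immunosubunits (median 1.45) lie with MHC class I loading (0.96), macrophage (1.31) and T and NK cell (2.10) genes in the upper part of the plot, and the medians of the constitutive subunits (0.26), the proteasome-associated genes (0.17) and the RPE (0.34), rod (0.22) and B cell (0.23) markers are lower.

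Markers of the resident tissue moved less. Of 6 RPE markers 2 rose, and 1 after centring, beside 11.3% and 8.85% of all genes, with a median log2 fold change of 0.34, which is above that of the constitutive 26S subunits, and their summed level went from 259977 to 321228 normalized counts. Pigment genes listed as melanocyte markers, of which Dct, Pmel and Tyrp1 are also expressed by RPE, had a median of -0.08 with 0 of 4 past the test, also by an unadjusted p. Endothelial markers had a median of -0.08 with 1 of 4 tested lower, beside 9.92% of all genes. They went both ways, 2 above 0 and 2 below, from -0.44 for Tek (SE 0.15, adjusted p 0.0198) to 0.53 for Plvap (SE 0.23, adjusted p 0.0902). Pecam1, also listed, had no p-value. Rod photoreceptor markers, whose source in these samples was not tested, had a median of 0.22 with 0 of 4 past either threshold and a median SE of 0.40. Whether the small rises of constitutive subunits come with a change in cell composition was not tested.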

How the data were processed

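Read trimming (BBDuk), alignment (STAR, Ensembl annotation of GRCm38) and abundance estimation (Sailfish) were done by the authors. The deposited baseMean is a normalized signal, the authors' mean over 6 libraries, made from Sailfish abundances that the methods say were turned into counts scaled by total count. Whether DESeq2 scaled them again is not stated, and the summed means of the groups differ (18502900 in young, 19881200 in aged mice). The log2 fold changes and SEs, the Wald score and the p-value and adjusted p-value were deposited by the authors from DESeq2. No column names a sample, so no test was rerun, and these columns of the authors' comparison are what is described. The file does not state its direction: 1849 of the called genes are positive, the number the study gives as higher in young mice, so the sign was reversed to aged over young, and every direction depends on this. SEs of tested genes never exceed 0.46, as shrinkage of fold changes would give. That is an inference, and if it holds, changes of low genes are understated.

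Recomputed Wald and Benjamini-Hochberg values matched the deposited ones to within 0.449% and 0.572%. A gene was called at an adjusted p under 0.05 over the 18636 genes with one. Group means were worked out from baseMean and fold change for equal group sizes. Exon lengths, positions and shared 31-base words came from GENCODE M21 (GRCm38), promoters from RefSeq. Centring subtracted the median fold change of tested genes with a baseMean of at least 100. Intervals are 95% normal intervals. Computation used Python 3.11.15, numpy 2.4.6, pandas 2.3.3 and scipy 1.17.1, and the adjustment was tested on simulated data. Members and lists were chosen with earlier results of these data known. Genes named are the members called, the catalytic subunits, the activators, the extremes of each role group and, per pathway list, up to 6 called genes with the largest change plus fixed regulators, 1 of which is not reported here. Ptprc, Cd68, Csf1r, Cx3cr1, Mrc1, Cd4, Tek, Plvap, Pecam1, Dct, Pmel, Tyrp1, Psme2b-ps, Psmd4, Psmd14, Psma5 and the RPE markers were named in addition, after their values were seen.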

Additional observations from a re-analysis of the deposited data

How the results depend on the processing

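The number of proteasome genes called, 14, went to 5 under an adjusted p below 0.01, to 2 (Psmb8 and Psmb9) when the log2 change also had to reach 1 in size and to 7 after centring, 6 of them among the 14. The first 2 are stricter by construction. It was 11 with no filter on low genes, where Psmc1, Psmc2 and Psmd7 were lost, 13 among genes with a mean of at least 100, 14 with Wald p-values for genes that lack one and 11 among 26S subunits alone. Of 63 pathway genes tested, 28 were called, 27 higher and 1 lower, beside 21.2% called and 11.3% higher of all genes tested. Of these calls, 10 were of MHC class I loading, 12 of interferon signalling and 1 was proteasome-associated. The count was 9 under the minimum fold change and 20 to 29 under the others run. The difference between Psmb10 and Psmb7, 0.58, has an interval above 0 with the SE of independent genes. None of the alternatives could reverse a called member. Only centring changes fold changes, by 0.06, and the smallest log2 fold change called among members was 0.31. Psmb8, Psmb9 and Psmb10 kept their calls after centring (1.502, 1.39 and 0.63). No paired analysis was possible because single libraries have no values in the table, and leaving out each library was not run for that reason. Precision is limited by SEs of 0.12 to 0.32 for the tested members.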

Other observations

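Some rows of the table carry related names but fall outside the symbol families, and were looked at after their values were seen. Psmc3ip, which encodes a meiotic recombination factor and no proteasome subunit, had a mean of 67.2 normalized counts and a log2 fold change of -0.13 (adjusted p 0.775, SE 0.26). The processed copies Psmb5-ps, Psmb6-ps and Psmb7-ps2 stood at means of 0.148, 0.153 and 0.611 normalized counts, too low for an adjusted p.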
